A study of Mus musculus with 18 samples.

Results

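The effect of AOM/DSS that was common to WT and *Cldn2*KO mice was examined in colon RNA-seq libraries. AOM/DSS combines the carcinogen azoxymethane with dextran sulfate sodium (DSS), which damages the lining of the colon, and is a mouse model of colitis-associated cancer (CAC). Of the 18 libraries of the series, the 12 labelled as control or AOM-DSS were used, in 4 groups of 3: WT control, WT AOM/DSS, *Cldn2*KO control and *Cldn2*KO AOM/DSS. The other 6 libraries, from mice recovering from DSS colitis, entered no test in the main comparison. The AOM/DSS mice had received AOM once, at 10 mg/kg body weight, followed by 3 cycles of 2.5% DSS in water. *Cldn2*KO mice carry the label Claudin-2 knockout and lack the tight junction protein claudin-2, and the study's methods describe C57BL/6 mice with littermate controls matched for age and sex. The labels give the tissue as colon, with no age and no statement on whether tumors were taken or left out. They do not say that each library came from a separate mouse, so the p-values measure only the spread between these samples.

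In the colon, stem cells at the crypt base divide under Wnt signaling, and their daughters mature into absorptive colonocytes and mucus-secreting goblet cells. Colon tumors in mice commonly arise with raised β-catenin/Wnt signaling, which also switches on its own feedback inhibitors. Repeated DSS injury adds cycles of barrier loss, neutrophil influx, matrix breakdown and repair. RNA of the whole tissue also carries transcripts of the muscle layers, the enteric nerves and the outer mesothelium. In such bulk tissue, fewer cells of a type and less RNA per cell cannot be told apart.

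The libraries held 17.6 to 27.4 M counted reads (median 19.2), and between 21596 and 23623 genes had at least 1 read. Levels are TMM-scaled CPM, reads of a gene in a library of 1 M reads. *Cldn2*, the targeted gene, stood between 45.9 and 217 CPM in the 6 WT libraries and between 0.0592 and 0.56 CPM in the 6 *Cldn2*KO libraries. WT control 2 stood apart, with *Hoxb13*, a marker of the posterior colon, at 0.283 unscaled CPM against 234 to 596 unscaled CPM in the other 11 libraries. WT AOM/DSS 3 lay farthest along the first principal component of the 1000 most variable genes, which held 45% of their variance. *Cldn2*KO AOM/DSS 2 and 3 had *Xist*, which is transcribed in female cells, at 1855 and 1811 unscaled CPM, against at most 1.21 unscaled CPM in the other 10 libraries. The 6 controls carried library names of another scheme than the 6 AOM/DSS libraries, and a difference in handling and the treatment cannot be told apart.

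The first question was how many genes AOM/DSS moved in one direction in both genotypes. With genotype as an additive factor, 2301 of 16488 genes tested were called (14%), 1182 higher (7.17%) and 1119 lower (6.79%) after AOM/DSS. A gene was called at an adjusted p under 0.05 by edgeR's quasi-likelihood test with Benjamini-Hochberg adjustment. All 2301 had the same sign of change in WT and *Cldn2*KO, which selection on the effect averaged over both genotypes largely fixes, and nothing is read from it. Tested within each genotype, 869 genes were called in WT (5.27%), 349 higher and 520 lower, and 4 were called in *Cldn2*KO (0.0243%), 1 higher and 3 lower. Only 3 genes were called in the additive fit and again in each genotype (0.0182%), and all 3 were lower: *Lars2*, *Gm15564* and *Tob1*. The number of calls differed between genotypes, but a difference of the effect itself was called for 0 genes by edgeR's interaction test, where the smallest adjusted p was 0.074. At an unadjusted p under 0.05, 1568 genes passed the interaction test against 824 expected with no difference, and DESeq2 called 118 genes and limma-voom 200. These tools also called more genes in *Cldn2*KO (733 by DESeq2 and 2468 by limma-voom) and in each genotype (349 and 604), and both of the latter lists held all 3 genes. The WT calls fell by more than 1.5 times without WT control 1 (47), 2 (369) or 3 (524), WT AOM/DSS 3 (94), *Cldn2*KO AOM/DSS 3 (347) and *Cldn2*KO control 1 (148), 2 (266) or 3 (401). The *Cldn2*KO calls came to 0 without *Cldn2*KO control 3 or *Cldn2*KO AOM/DSS 3 and to 204 without WT control 2, 134 without WT AOM/DSS 3, 24 without *Cldn2*KO AOM/DSS 2, 22 without WT AOM/DSS 1 and 11 without *Cldn2*KO AOM/DSS 1. The interaction calls were between 2 and 6 without WT control 2, WT AOM/DSS 1 or 3, *Cldn2*KO control 3 or *Cldn2*KO AOM/DSS 1.

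A second, looser count asked for a call in the additive fit with all 3 AOM/DSS libraries on one side of all 3 controls in each genotype. This held for 1350 genes, or 58.67% of the additive calls: 645 higher (3.91%) and 705 lower (4.28%). Without the requirement of a call, 1656 genes showed such a separation in the same direction in both genotypes (10%). The median log2 fold change of the 645 higher genes was 0.78 in WT and 0.57 in *Cldn2*KO, and that of the 705 lower genes was -1.17 in WT and -0.88 in *Cldn2*KO. Changes beyond 1 log2 unit in the additive fit were seen for 165 of the higher and 369 of the lower genes. A stricter separation, all 6 AOM/DSS libraries on one side of all 6 controls, held for 466 higher and 371 lower called genes. Single libraries weighed on these counts: the additive calls fell to 696 and the looser count to 604 without *Cldn2*KO AOM/DSS 3, and they stood at 3022 and 2135 without *Cldn2*KO AOM/DSS 2. The calls of the additive fit also moved by more than 1.5 times without WT AOM/DSS 2 (1510), WT AOM/DSS 3 (1275), *Cldn2*KO AOM/DSS 1 (1378), WT control 1 (1212), WT control 3 (1257) and each of *Cldn2*KO controls 1 (1379), 2 (1059) and 3 (1163), and the looser count without *Cldn2*KO control 2 (863).

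**Figure D1:**
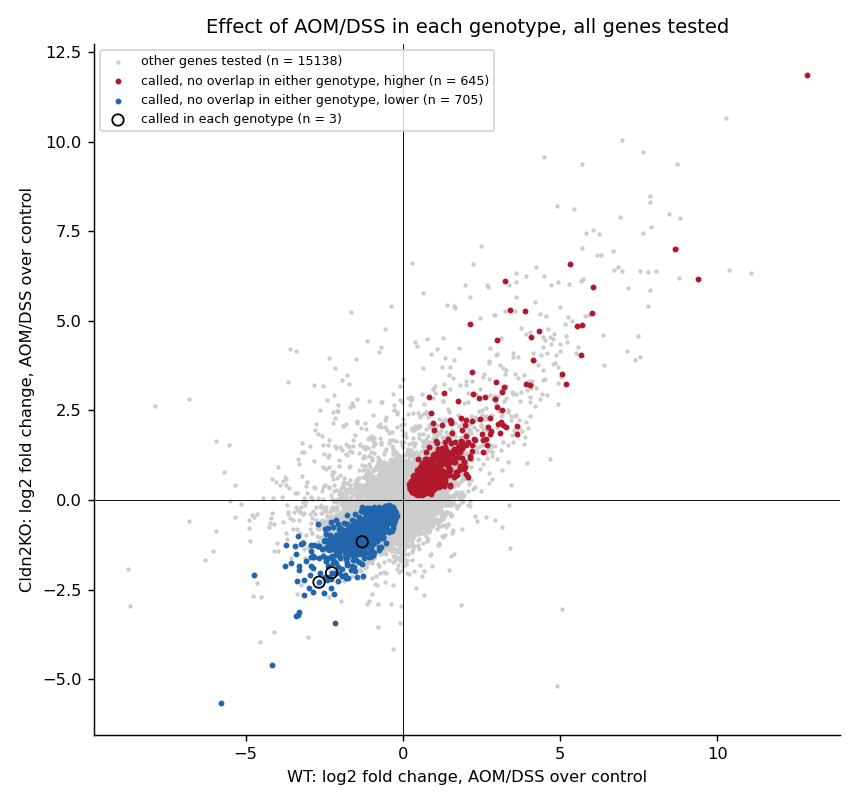
Log2 fold change of AOM/DSS over control in WT (horizontal axis) and in *Cldn2*KO (vertical axis) for each of the 16488 genes tested. The 645 higher (red) and 705 lower (blue) genes of the looser count lie in the upper right and lower left by their definition, and the 3 genes called in each genotype are circled.

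The 3 genes called in each genotype were lower in every AOM/DSS library than in every control. *Lars2* encodes the mitochondrial leucyl-tRNA synthetase. Its level was 459, 498 and 593 CPM in WT controls against 112, 123 and 87.5 CPM in WT AOM/DSS, and 333, 598 and 464 CPM in *Cldn2*KO controls against 98.6, 127 and 116 CPM in *Cldn2*KO AOM/DSS. The groups did not overlap, and the additive log2 fold change was -2.14 ± 0.159 (SE; edgeR adjusted p = 8.18e-05), with -2.26 in WT (edgeR adjusted p = 0.00381) and -2.03 in *Cldn2*KO (edgeR adjusted p = 0.0105). *Tob1*, an antiproliferative protein of the BTG/TOB family, stood at 165, 212 and 183 CPM in WT controls, at 70, 85 and 74.1 CPM in WT AOM/DSS, at 170, 216 and 176 CPM in *Cldn2*KO controls and at 81.4, 84.2 and 85.4 CPM in *Cldn2*KO AOM/DSS. Its additive log2 fold change was -1.23 ± 0.098 (SE; edgeR adjusted p = 0.000128), with edgeR adjusted p = 0.00554 in WT and 0.0148 in *Cldn2*KO. *Gm15564*, a predicted gene on chromosome 16, stood between 53.8 and 100 CPM in the 6 controls and between 10.9 and 18.3 CPM in the 6 AOM/DSS libraries. It fell by 2.48 on the log2 scale in the additive fit (SE 0.17; edgeR adjusted p = 6.84e-05). The additive calls of *Lars2* and *Gm15564* were kept in all 24 alternative analyses and that of *Tob1* in 23 of 24. The call in each genotype was less stable. It was lost for all 3 genes without *Cldn2*KO control 3, without *Cldn2*KO AOM/DSS 3 and in a test against a log2 fold change of 1. It was lost for 1 of the 3 without *Cldn2*KO control 2 or *Cldn2*KO AOM/DSS 1. In another alternative, *Xist* above or below 10 unscaled CPM was a factor, which marks only *Cldn2*KO AOM/DSS 2 and 3. In a further one, chosen after the data had been seen, WT control 2 and both *Xist*-high libraries were left out. In either, the *Cldn2*KO effect rests on *Cldn2*KO AOM/DSS 1 alone, so a call in each genotype cannot be judged. More genes were called in each genotype without WT control 2 (59), WT AOM/DSS 3 (18), *Cldn2*KO AOM/DSS 2 (15) and WT AOM/DSS 1 (11), and each of these lists held all 3.

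*Lars2* and *Gm15564* cannot be taken as independent measurements. Their annotated transcripts in GENCODE release M21 (GRCm38) share an identical stretch of 52 bases on the same strand. How many of the counted reads came from this stretch was not tested. The first 30 bases are shown because reads from this stretch fit both genes, and no capitals are used since no part of it is singled out.
Shared stretch: gaattcaccaagcgttggattgttcaccca
As background, *Gm26917* and *Mir6236* are further loci at which reads of ribosomal RNA can collect, and both were lower as well. *Mir6236* stood between 0.887 and 3.36 CPM in the controls and between 0.205 and 0.56 CPM in AOM/DSS libraries (additive log2 fold change -2.71 ± 0.356 SE; edgeR adjusted p = 0.00396). *Gm26917* fell by 1.78 on the log2 scale (SE 0.408; edgeR adjusted p = 0.0224), and its adjusted p was 0.0545 without *Cldn2*KO AOM/DSS 3. Its groups overlapped in both genotypes. In unscaled CPM it stood at 48.6 to 171 in WT controls and 38.9 to 54.1 in WT AOM/DSS, and at 31.9 to 185 and 29.4 to 42 in *Cldn2*KO. In the 6 libraries of mice recovering from DSS colitis, *Lars2* stood between 110 and 125 unscaled CPM against 328 to 571 unscaled CPM in the 6 controls, and *Mir6236* between 0.044 and 0.415 unscaled CPM against 0.875 to 3.32. *Gm26917* overlapped there too, at 20.8 to 65.8 unscaled CPM against 31.9 to 185 in the controls. The 6 recovery libraries carried names of the same scheme as the AOM/DSS libraries and had *Hoxb13* at 0.39 unscaled CPM or less. Whether ribosomal RNA carried into the libraries plays a part in these values was not tested. It cannot be told apart from the treatment, since the controls differ in their naming from both the AOM/DSS and the recovery libraries. Of the 10 pairs among *Lars2*, *Gm15564*, *Tob1*, *Gm26917* and *Mir6236*, only *Lars2* and *Gm15564* shared a 20-base stretch on either strand.

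Of the 26 Wnt targets and feedback genes tested, 18 were called higher and 1 lower, beside 7.17% and 6.79% of all genes. The median additive log2 fold change of the list was 1.53, against 0.02 over all genes tested. *Notum*, with few reads in the controls, could pass the filter on low counts only through the AOM/DSS libraries. The count and the median are therefore descriptions of the tested genes. In 8 of the 18 higher genes the groups did not overlap in either genotype, beside 645 of the 1182 genes called higher in all, so the share was no larger than among other calls. *Myc*, the transcription factor that drives crypt cell growth, stood at 10.9, 9.86 and 13.6 CPM in WT controls, at 27.9, 31.9 and 44.1 CPM in WT AOM/DSS, at 17, 9.23 and 12.9 CPM in *Cldn2*KO controls and at 36.8, 29.3 and 31.4 CPM in *Cldn2*KO AOM/DSS. All 6 AOM/DSS libraries exceeded all 6 controls (additive log2 fold change 1.46 ± 0.17 SE; edgeR adjusted p = 0.00237). *Sox4*, a transcription factor of progenitor cells, stood at 5.67, 2.9 and 4.7 CPM in WT controls, at 9.68, 33.8 and 74.4 CPM in WT AOM/DSS, at 6.42, 5.74 and 3.53 CPM in *Cldn2*KO controls and at 20.3, 17.1 and 33.3 CPM in *Cldn2*KO AOM/DSS (2.65 ± 0.445 SE; edgeR adjusted p = 0.0108). It overlaps a gene on the other strand, as do *Axin2*, *Ccnd1*, *Notum* and *Prox1*, and the strand setting of the counting was not stated, so their levels are uncertain. The same holds for *Mmp7*, *Mmp28*, *Des*, *Usp2*, *Tef*, *Dbp*, *Nr1d1*, *Kbtbd11*, *Mettl7b*, *Plk1*, *Ptgs1*, *Ptgis*, *Zfp36* and *Irf1*, described further on.

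The feedback inhibitors of the pathway showed a wide spread within the AOM/DSS groups. *Axin2*, which promotes β-catenin breakdown, stood at 15.6, 4.93 and 14.6 CPM in WT controls, at 17.5, 59.2 and 166 CPM in WT AOM/DSS, at 13.4, 11.2 and 10 CPM in *Cldn2*KO controls and at 61.6, 31.3 and 75.8 CPM in *Cldn2*KO AOM/DSS. The lowest AOM/DSS library was only just above the highest control, and the additive log2 fold change was 2.53 ± 0.487 (SE; edgeR adjusted p = 0.0157). *Wif1*, a secreted binder of Wnt proteins, stood at 0.616, 0.338 and 2.01 CPM in WT controls, at 1.79, 36.7 and 304 CPM in WT AOM/DSS, at 1.51, 0.474 and 0.739 CPM in *Cldn2*KO controls and at 103, 1.44 and 147 CPM in *Cldn2*KO AOM/DSS (6.68 ± 1.31 SE; edgeR adjusted p = 0.0166). *Notum*, a secreted enzyme that inactivates Wnt proteins, stood at 25.3 and 106 CPM in WT AOM/DSS 2 and 3 and at 41.6 and 44 CPM in *Cldn2*KO AOM/DSS 1 and 3. In WT AOM/DSS 1 and *Cldn2*KO AOM/DSS 2 it stood at 0.154 and 0.275 CPM, and in the 6 controls at 0.573 CPM or less (8.10 ± 1.6 SE; edgeR adjusted p = 0.0169). For *Wif1* and *Notum*, therefore, 1 AOM/DSS library of each genotype did not stand clear of the controls. Over the fits without 1 library their log2 fold changes ranged from 5.54 to 7.02 and from 7.21 to 9.46.

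Among other members of the list, *Ascl2*, a transcription factor of crypt stem cells, rose by 1.43 ± 0.263 (SE) on the log2 scale and *Ccnd1*, which encodes cyclin D1, by 1.04 ± 0.19 (edgeR adjusted p = 0.0141 and 0.0137). *Lgr5*, the stem cell receptor for R-spondins, stood between 2.87 and 79.8 CPM in AOM/DSS and between 3.65 and 8.25 CPM in controls, and was not called (1.98 ± 0.679 SE; edgeR adjusted p = 0.0701). *Sox9* was not called either (0.50 ± 0.285 SE; edgeR adjusted p = 0.245). *Nkd2*, an inhibitor of the Wnt transducer Dishevelled, was the 1 member called lower (-1.71 ± 0.359 SE; edgeR adjusted p = 0.0179). Over the list, the mean log2 CPM of the members was 2.49 to 2.86 in the 6 controls, 2.63 in WT AOM/DSS 1, 3.23 in *Cldn2*KO AOM/DSS 2 and 4.55 to 5.91 in the other 4 AOM/DSS libraries. The count of members called higher was 12 without WT AOM/DSS 3, 11 without *Cldn2*KO AOM/DSS 3, 11 without *Cldn2*KO control 2 and 12 without *Cldn2*KO control 1, WT control 1 or WT control 3, and the median stayed between 1.20 and 1.75 over all alternatives.

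**Figure D2:**
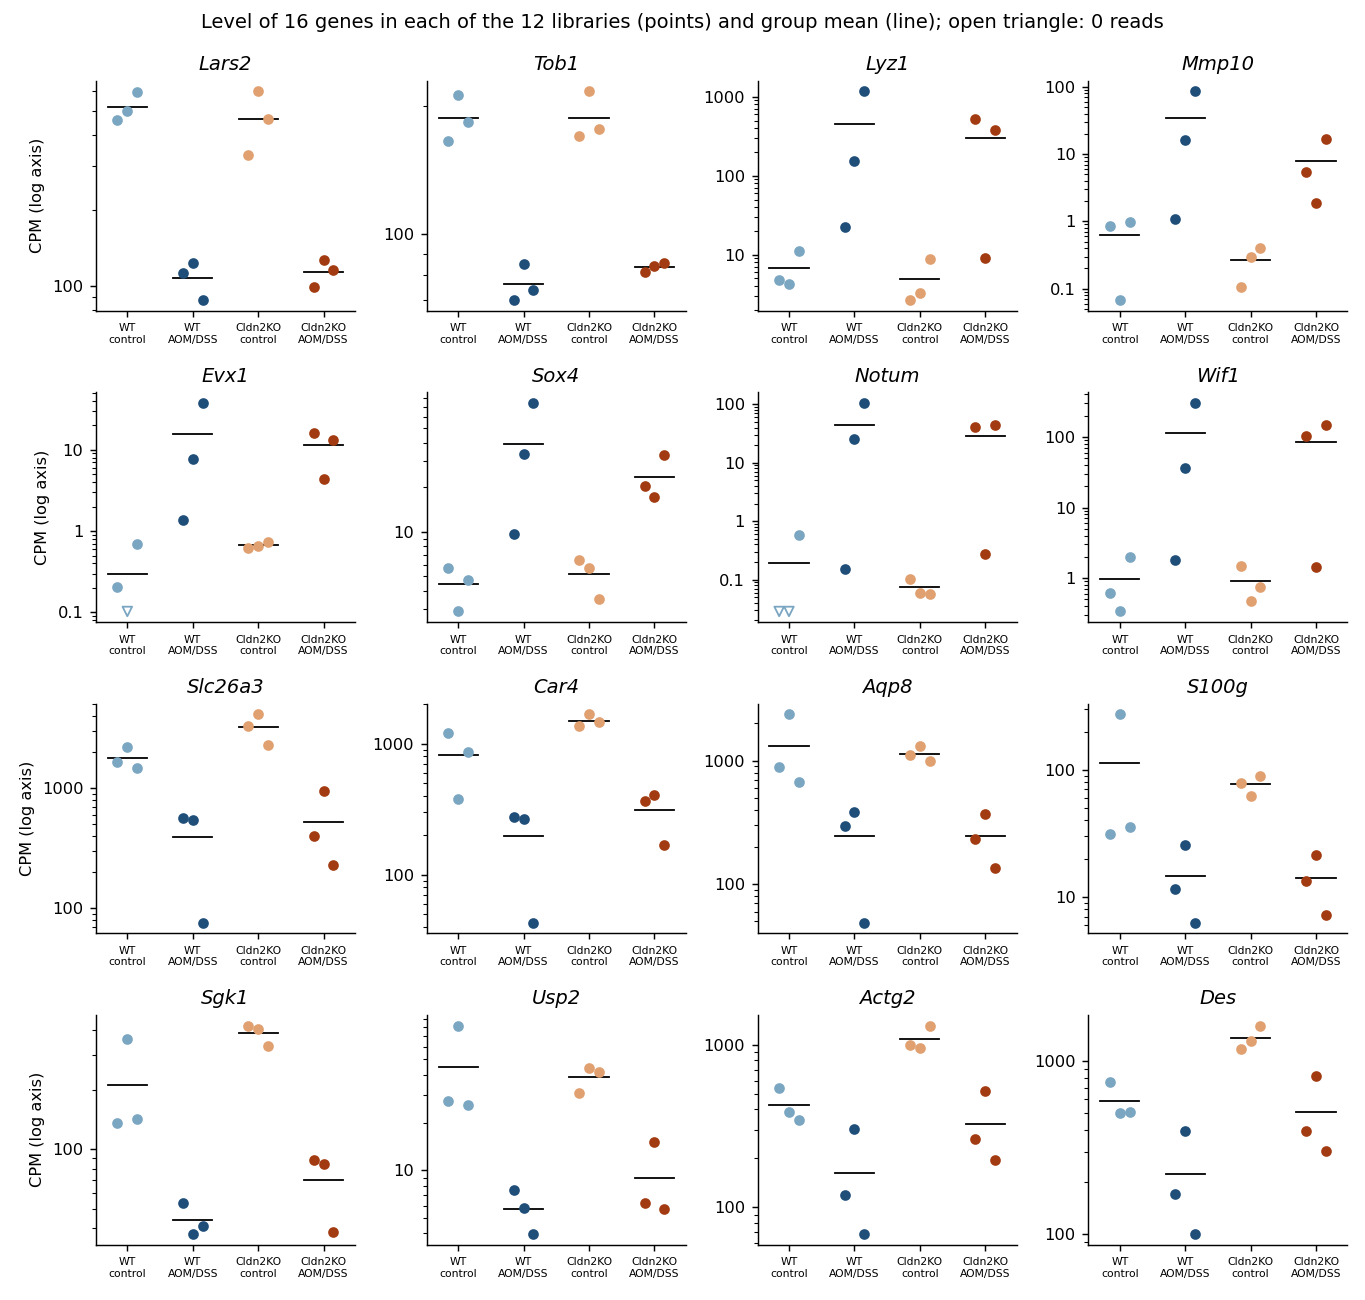
Level of 16 genes in CPM (log axis) in each of the 12 libraries, 3 points per group, with the group mean as a line and libraries at 0 reads as open triangles. For *Lars2* and *Tob1* the AOM/DSS points lie close together below all controls, whereas *Notum* and *Wif1* show 1 AOM/DSS library of each genotype among the control values.

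The 12 genes with the largest rise whose groups did not overlap in either genotype included *Scgb1b3*, a secretoglobin, which stood at 2.35, 3.79 and 1.12 CPM in WT AOM/DSS and 3.21, 1.2 and 2.75 CPM in *Cldn2*KO AOM/DSS, against at most 0.115 CPM in the controls. It rested on 3 reads over the WT controls and 1 read over the *Cldn2*KO controls, which gave ratios of 46.6 in WT (95% counting interval 15.7 to 229) and 122 in *Cldn2*KO (21.6 to 4850), and it was called in all 24 alternatives (edgeR adjusted p = 0.0016). Counting intervals and floors cover counting error only, and close secretoglobin paralogs make the count uncertain. *Khdc1a* stood at 3.2, 0.0675 and 5.16 CPM in WT controls, at 14.8, 73 and 38.3 CPM in WT AOM/DSS, at 1.57, 0.651 and 0.455 CPM in *Cldn2*KO controls and at 41.9, 21.8 and 41.5 CPM in *Cldn2*KO AOM/DSS (4.51 ± 0.687 SE; edgeR adjusted p = 0.00754). *Evx1*, a homeobox transcription factor of the posterior embryo, stood at 0 to 0.739 CPM in the 6 controls and at 1.38 to 37.8 CPM in the 6 AOM/DSS libraries (4.80 ± 0.841 SE; edgeR adjusted p = 0.0125). Its antisense transcript *Evx1os* rose as well (5.61 ± 0.954 SE; edgeR adjusted p = 0.0111), and the overlapping pair is uncertain. *Acod1*, the itaconate-producing enzyme of activated macrophages, was called (4.18 ± 1.0 SE; edgeR adjusted p = 0.0242), but the call was lost without WT AOM/DSS 3, without *Cldn2*KO AOM/DSS 3 and without WT control 1, and the log2 fold change ranged from 2.20 to 4.59 over the fits without 1 library.

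Several of the genes with the largest rise are known as products of Paneth cells, the antimicrobial secretory cells that are abundant in the small intestine and sparse in the mouse colon. No list was set for these cells and the α-defensins were picked after their values were seen, so no statement on the cell type as a group is made. *Lyz1*, lysozyme, stood at 4.85, 4.25 and 11.3 CPM in WT controls, at 22.3, 155 and 1169 CPM in WT AOM/DSS, at 2.66, 3.32 and 8.81 CPM in *Cldn2*KO controls and at 523, 9.1 and 378 CPM in *Cldn2*KO AOM/DSS (5.99 ± 1.1 SE; edgeR adjusted p = 0.0143). In *Cldn2*KO AOM/DSS 2 it was near the highest *Cldn2*KO control. *Itln1*, an intelectin that binds microbial sugars, stood at 0.862 to 2.23 CPM in the controls and at 2.27 to 208 CPM in AOM/DSS libraries (5.21 ± 1.02 SE; edgeR adjusted p = 0.0163). *Ang4*, an antimicrobial ribonuclease, rose by 4.32 ± 0.725 (SE; edgeR adjusted p = 0.0108) and *Pla2g2a*, a secreted phospholipase, by 3.70 ± 0.788 (SE; edgeR adjusted p = 0.0198). The call of *Pla2g2a* was lost without WT AOM/DSS 3 (edgeR adjusted p = 0.0521). *Defa24*, an α-defensin, had no read in any control and stood at 0.256, 3.34 and 130 CPM in WT AOM/DSS and at 31.2, 0.137 and 35.8 CPM in *Cldn2*KO AOM/DSS. Against a floor of 3 reads over the group it was at least 816-fold higher in WT and at least 374-fold higher in *Cldn2*KO, but its call was kept in 2 of the 12 fits that left out 1 library (edgeR adjusted p = 0.0484 with all libraries). Of the other α-defensins tested, *Defa30* was called (8.31 ± 1.98 SE; edgeR adjusted p = 0.0242), in 7 of 12 fits without 1 library, whereas *Defa17* (edgeR adjusted p = 0.0666), *Defa22* (edgeR adjusted p = 0.086) and *Defa34* (edgeR adjusted p = 0.0697) were not. α-Defensins have near-identical copies, so their counts are uncertain. Of the 21 epithelial antimicrobial and oxidase genes tested, 5 were called higher and 1 lower, beside 7.17% and 6.79% of all genes tested. The median log2 fold change was 0.42. The median was -0.17 in WT and 2.24 in *Cldn2*KO. The same sign in both genotypes was seen for 12 of the 21, beside 11218 of all 16488 genes tested. Single libraries moved the additive median, to 1.30 without WT control 2, 1.06 without WT AOM/DSS 1, 1.02 without WT AOM/DSS 2, 0.27 without *Cldn2*KO control 3 and 0.23 without *Cldn2*KO AOM/DSS 3. The lower member was *Saa1*, an acute-phase protein (-1.04 ± 0.295 SE; edgeR adjusted p = 0.0382), whose call was kept in 2 of 12 fits without 1 library. The number of the list called higher was 3 without WT AOM/DSS 3.

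**Figure D3:**
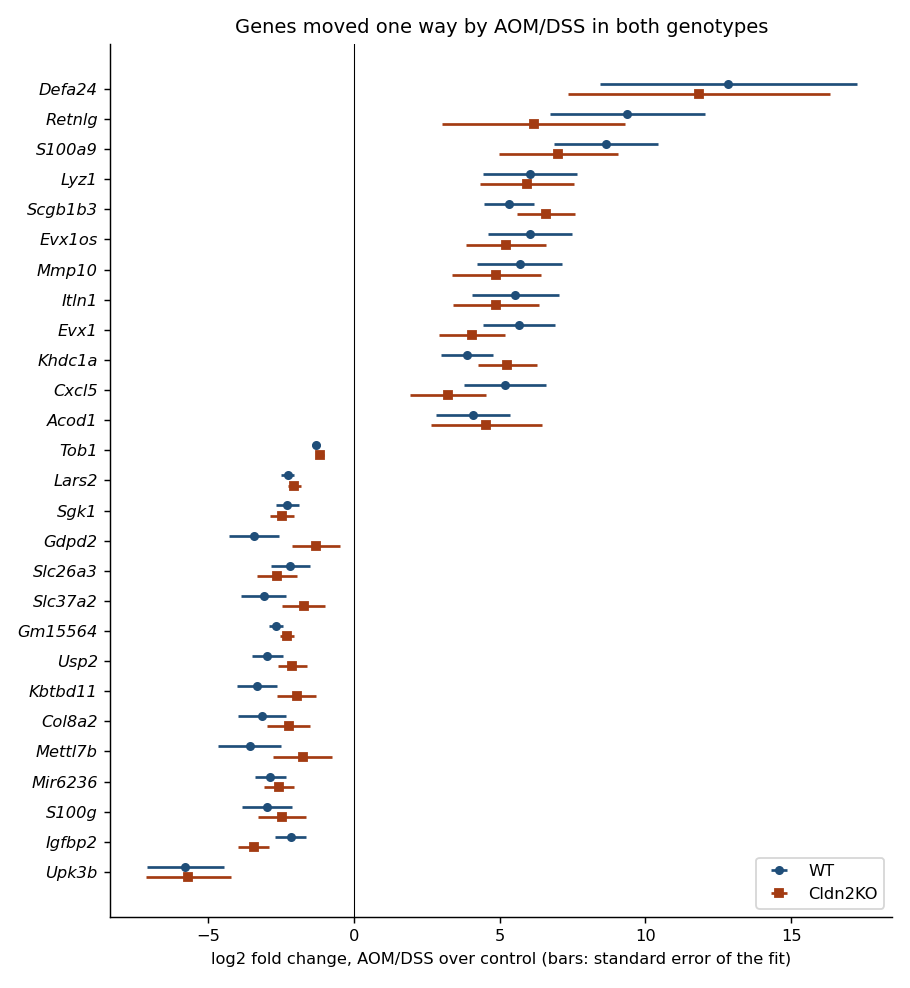
Log2 fold change of AOM/DSS over control in WT (circles) and *Cldn2*KO (squares), with the standard error of the fit as bars, for the genes with the largest change among those without overlap and the 3 genes called in each genotype. All values lie on the same side of 0 in both genotypes by the way the genes were chosen, and the bars of *Defa24* and *Retnlg*, at 0 reads in all controls, depend on the fit's prior count.

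Of 21 neutrophil genes and chemokines that attract these cells, 15 passed the filter on low counts. Of these, 13 were called higher and 0 lower, beside 7.17% and 6.79% of all genes tested. The other 6 (*Cxcr2*, *Csf3*, *Mmp8*, *Ngp*, *Stfa2* and *Stfa2l1*) were not tested. Genes with next to no reads in the controls, such as *S100a9* and *Retnlg*, could pass the filter only through the AOM/DSS libraries, where they were high. The count and the median additive log2 fold change of 3.59 are therefore descriptions of the tested genes. The median did not move when *Retnlg*, at 0 reads in all controls, was set to its bound. *S100a9*, a calcium-binding protein abundant in neutrophils, stood at 0.164, 0.0675 and 0.115 CPM in WT controls, at 1.13, 8.36 and 145 CPM in WT AOM/DSS, at 0.0522, 0 and 0.0569 CPM in *Cldn2*KO controls and at 7.84, 2.06 and 6.9 CPM in *Cldn2*KO AOM/DSS. All 6 AOM/DSS libraries exceeded all 6 controls (8.29 ± 1.35 SE; edgeR adjusted p = 0.0103), and in *Cldn2*KO, where the controls held 2 reads, the ratio was 142 (95% counting interval 39 to 1175). Its partner *S100a8* stood at 0.246, 0.0675 and 1.55 CPM in WT controls, at 1.38, 4.57 and 187 CPM in WT AOM/DSS, at 0, 0 and 0.114 CPM in *Cldn2*KO controls and at 4.63, 2.2 and 9.14 CPM in *Cldn2*KO AOM/DSS, with overlap in WT (6.74 ± 1.37 SE; edgeR adjusted p = 0.0176). Both calls were kept in all 12 fits without 1 library, but the log2 fold change ranged from 4.09 to 8.12 for *S100a8* and from 5.97 to 8.73 for *S100a9*. *Cxcl5*, a neutrophil chemokine of epithelial cells, stood at 20.5, 43.1 and 616 CPM in WT AOM/DSS and at 54.5, 17.7 and 56.3 CPM in *Cldn2*KO AOM/DSS, against at most 11.9 CPM in the controls (4.23 ± 1.0 SE; edgeR adjusted p = 0.0242). Its call was lost without *Cldn2*KO AOM/DSS 3, WT control 1 or WT control 3, and its log2 fold change ranged from 2.84 to 4.51 over the fits without 1 library. *Retnlg*, a resistin-like protein of neutrophils, was at least 74.1-fold higher in WT and at least 7.53-fold higher in *Cldn2*KO, and its call was kept in 2 of 12 fits without 1 library. The marker *Ly6g* and the surface protein *Cd177* were not called.

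WT AOM/DSS 3 held the highest neutrophil values, with a mean log2 CPM of 5.43 over the list against 1.55 to 2.74 in the other AOM/DSS libraries and -0.12 to 1.64 in the controls. Summed over the list, levels ranged from 24.2 to 915 CPM in WT controls, 507 to 1811 CPM in WT AOM/DSS, 413 to 601 CPM in *Cldn2*KO controls and 492 to 691 CPM in *Cldn2*KO AOM/DSS, so the sums overlapped in both genotypes. The number of members called higher was 4 without WT AOM/DSS 3, 3 without *Cldn2*KO AOM/DSS 3, 5 without *Cldn2*KO control 2, 6 without WT control 1, 7 without *Cldn2*KO AOM/DSS 1, *Cldn2*KO control 1, *Cldn2*KO control 3 or WT control 3, and 8 without WT control 2. It was 1 when WT control 2 and both *Xist*-high libraries were left out together, an alternative chosen after the data had been seen. The median log2 fold change was 2.12 without WT AOM/DSS 3 and between 3.54 and 4.43 in the other fits without 1 library.

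Matrix metalloproteinases (MMPs), which cleave the extracellular matrix, and their inhibitors were called higher for 9 of 16 genes tested, of 17 listed, and lower for 0. The median was 1.10, and of all genes tested 7.17% were called higher and 6.79% lower. *Mmp8* was not tested, and *Mmp10*, with few reads in the controls, could pass the filter only through the AOM/DSS libraries. The count and the median are therefore descriptions of the tested genes. *Mmp10* stood at 0.862, 0.0675 and 0.974 CPM in WT controls, at 1.08, 16 and 85.7 CPM in WT AOM/DSS, at 0.104, 0.296 and 0.398 CPM in *Cldn2*KO controls and at 5.4, 1.86 and 16.6 CPM in *Cldn2*KO AOM/DSS. Every AOM/DSS library exceeded every control (5.37 ± 1.03 SE; edgeR adjusted p = 0.0156). *Mmp7*, matrilysin of the epithelium, reached 400 CPM in WT AOM/DSS 3 and 85.3 and 86.4 CPM in *Cldn2*KO AOM/DSS 1 and 3, but stood at 0.973 CPM in WT AOM/DSS 1 and 0.893 CPM in *Cldn2*KO AOM/DSS 2, within the range of the controls (6.83 ± 1.56 SE; edgeR adjusted p = 0.0223). *Mmp13*, a collagenase, rose by 3.40 on the log2 scale (SE 0.748; edgeR adjusted p = 0.021) and *Mmp28*, an epithelial MMP, by 1.18 (SE 0.263; edgeR adjusted p = 0.021). The log2 fold change of *Mmp7* ranged from 5.36 to 8.04 over the fits without 1 library. The calls of *Mmp7* and *Mmp13* were lost without *Cldn2*KO AOM/DSS 3 and WT AOM/DSS 3, respectively. The count of members called higher was 4 without either of these libraries, 5 without *Cldn2*KO control 2, 6 without *Cldn2*KO AOM/DSS 1 or any 1 WT control, and 3 without WT control 2 and both *Xist*-high libraries together.

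Of the 28 genes of fetal-like and repair epithelium, 5 were called higher and 1 lower, beside 7.17% and 6.79% of all genes tested. Without WT AOM/DSS 3, 3 were called higher. In 17 of the 28 the sign of the change was the same in both genotypes, beside 11218 of all 16488 genes tested. *Itga2*, an integrin subunit that binds collagen, stood at 4.43, 12.9 and 5.67 CPM in WT controls, at 14, 26.6 and 37.4 CPM in WT AOM/DSS, at 4.02, 3.67 and 2.79 CPM in *Cldn2*KO controls and at 13.5, 18 and 39.7 CPM in *Cldn2*KO AOM/DSS (2.26 ± 0.387 SE; edgeR adjusted p = 0.0111). The groups did not overlap. The keratins *Krt23* (2.88 ± 0.634 SE; edgeR adjusted p = 0.021) and *Krt7* (1.17 ± 0.248 SE; edgeR adjusted p = 0.0192) rose too, whereas *Ly6a*, a widely used marker of repairing epithelium, was not called (-0.05 ± 0.445 SE). Among 17 goblet cell genes, 3 were called higher and 0 lower, among them *Sytl2*, a granule transport protein (1.03 ± 0.201 SE; edgeR adjusted p = 0.0155), and *Ern2*, a stress sensor of mucus-secreting cells (1.08 ± 0.235 SE; edgeR adjusted p = 0.0202). Of all genes tested 7.17% were called higher. Of the 17 goblet cell genes, 10 had the same sign in both genotypes, beside the 11218 of 16488 among all genes tested. The mean log2 CPM of the goblet cell genes was 8.12, 7.01 and 8.19 in WT controls and 8.60, 8.45 and 7.29 in WT AOM/DSS, so that these groups overlapped. In *Cldn2*KO the groups did not overlap, at 8.08, 8.12 and 8.07 in controls and 8.49, 8.41 and 8.37 in AOM/DSS. The main mucin gene *Muc2* had a log2 fold change of 0.01 and was not called.

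Markers of squamous epithelium, the lining of the anal canal, were examined beside these genes. Of 9 tested, 4 keratins were called higher and 0 lower, beside 7.17% and 6.79% of all genes tested. The median log2 fold change was 2.02, and *Krt5*, *Trp63*, *Krt1*, *Lor* and *Krtdap* did not pass the filter. Here too, genes with next to no reads in the controls, such as *Krt4* with 1 read over the WT controls and 2 over the *Cldn2*KO controls, could pass only through the AOM/DSS libraries, so the count and the median are descriptions of the tested genes. *Krt13* stood at 1.02, 12.7 and 25.8 CPM in WT AOM/DSS and at 16.7, 1.82 and 22 CPM in *Cldn2*KO AOM/DSS, against 0 to 1.72 CPM in the controls (4.12 ± 0.887 SE; edgeR adjusted p = 0.0202). Summed over the list, levels ranged from 6.75 to 13 CPM in WT controls, 11.4 to 73.3 CPM in WT AOM/DSS, 12.6 to 15.6 CPM in *Cldn2*KO controls and 12.6 to 73.9 CPM in *Cldn2*KO AOM/DSS. The mean log2 CPM of the list was 0.35 in WT AOM/DSS 1 and 0.53 in *Cldn2*KO AOM/DSS 2, inside the 0.03 to 0.60 of the controls, and these were the same libraries in which *Wif1*, *Notum* and *Mmp7* were low. The part of anal canal tissue in the rises was not tested. The number of squamous markers called higher was between 1 (without *Cldn2*KO control 2) and 4 over the fits without 1 library, with 2 without WT AOM/DSS 3, *Cldn2*KO AOM/DSS 3, *Cldn2*KO control 1 or WT control 1.

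**Figure D4:**
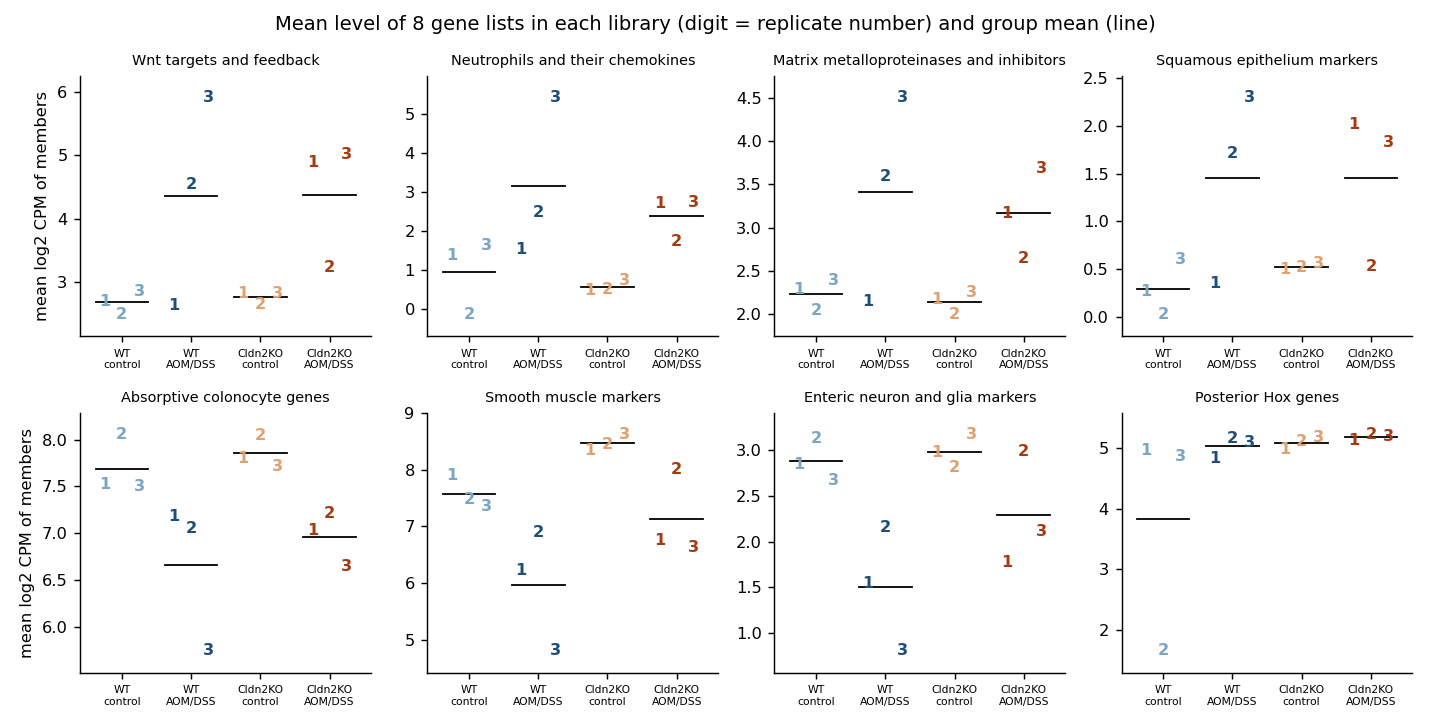
Mean log2 CPM of the members of 8 gene lists in each library, shown as the replicate number, with the group mean as a line. WT AOM/DSS 1 and *Cldn2*KO AOM/DSS 2 sat near the controls for the Wnt and squamous lists, WT AOM/DSS 3 was highest for neutrophils, and WT control 2 was low for the posterior Hox genes.

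Of 30 absorptive colonocyte genes tested, 0 were called higher and 11 lower, with a median log2 fold change of -1.10. Of all genes tested 6.79% were called lower. Of the 11, 9 did not overlap in either genotype, beside 705 of the 1119 genes called lower in all. *Slc26a3*, the chloride/bicarbonate exchanger of the surface epithelium, stood at 1643, 2202 and 1468 CPM in WT controls, at 562, 540 and 76 CPM in WT AOM/DSS, at 3296, 4134 and 2279 CPM in *Cldn2*KO controls and at 404, 945 and 229 CPM in *Cldn2*KO AOM/DSS. All 6 AOM/DSS libraries were below all 6 controls (-2.40 ± 0.47 SE; edgeR adjusted p = 0.0162). *Aqp8*, a water channel, stood at 884, 2375 and 671 CPM in WT controls, at 298, 387 and 48.7 CPM in WT AOM/DSS, at 1102, 1321 and 996 CPM in *Cldn2*KO controls and at 230, 368 and 135 CPM in *Cldn2*KO AOM/DSS (-2.32 ± 0.475 SE; edgeR adjusted p = 0.0176). *Car4*, a membrane-bound carbonic anhydrase, stood at 1210, 379 and 862 CPM in WT controls, at 277, 268 and 42.8 CPM in WT AOM/DSS, at 1372, 1681 and 1456 CPM in *Cldn2*KO controls and at 363, 405 and 167 CPM in *Cldn2*KO AOM/DSS (-2.17 ± 0.431 SE; edgeR adjusted p = 0.0169). *Slc9a2*, a sodium/hydrogen exchanger, fell by 1.47 on the log2 scale (SE 0.3; edgeR adjusted p = 0.0172). These 4 calls were kept in all 12 fits without 1 library. The lowest value of each of these 4 genes was in WT AOM/DSS 3.

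Of the 12 lower genes with the largest change and no overlap, 5 follow, which were taken for their size and form no group. *S100g*, the calcium-binding protein calbindin-D9k, stood at 31.3, 274 and 35.2 CPM in WT controls and 11.5, 25.7 and 6.25 CPM in WT AOM/DSS, and at 78.3, 62.6 and 89.6 CPM in *Cldn2*KO controls and 13.3, 21.4 and 7.16 CPM in *Cldn2*KO AOM/DSS (-2.71 ± 0.579 SE; edgeR adjusted p = 0.0199). The high value belonged to WT control 2, the library without *Hoxb13*, which was also the highest control for *Slc37a2*, *Kbtbd11* and *Mettl7b*. *Slc37a2*, a sugar-phosphate transporter, fell by 2.40 on the log2 scale (SE 0.567; edgeR adjusted p = 0.024) and *Kbtbd11* by 2.63 (SE 0.514; edgeR adjusted p = 0.0163). *Mettl7b* was called (-2.66 ± 0.789 SE; edgeR adjusted p = 0.0454), a call kept in 2 of 12 fits without 1 library. Its log2 fold change was -1.37 without WT control 2. *Igfbp2*, a binding protein of insulin-like growth factors, stood at 23.9, 11.3 and 17.2 CPM in WT controls, at 4.1, 5.07 and 2.59 CPM in WT AOM/DSS, at 59.8, 79.1 and 67.2 CPM in *Cldn2*KO controls and at 4.33, 12.3 and 2.39 CPM in *Cldn2*KO AOM/DSS (-2.81 ± 0.417 SE; edgeR adjusted p = 0.00698). Within the colonocyte list, *Car1* and *Guca2b* were not called, at -3.48 and 0.30. The count of the list called lower was 6 without *Cldn2*KO AOM/DSS 3 or *Cldn2*KO control 2, 7 without WT AOM/DSS 2, WT control 1 or WT control 3, and 5 without WT control 2 and both *Xist*-high libraries together.

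Of 16 smooth muscle markers tested, 0 were called higher and 12 lower, with a median log2 fold change of -1.41, beside 6.79% of all genes called lower. Of the 12, 11 did not overlap in either genotype, beside 705 of the 1119 lower calls in all. *Actg2*, enteric smooth muscle actin, stood at 545, 385 and 343 CPM in WT controls, at 118, 302 and 68.2 CPM in WT AOM/DSS, at 995, 952 and 1313 CPM in *Cldn2*KO controls and at 263, 521 and 196 CPM in *Cldn2*KO AOM/DSS (-1.56 ± 0.348 SE; edgeR adjusted p = 0.021). The groups did not overlap within a genotype, but *Cldn2*KO AOM/DSS 2 was as high as the WT controls. *Tpm2*, a tropomyosin (-1.54 ± 0.318 SE; edgeR adjusted p = 0.0176), *Mylk*, the myosin light chain kinase (-1.43 ± 0.313 SE; edgeR adjusted p = 0.0204), and *Des*, desmin (-1.41 ± 0.328 SE; edgeR adjusted p = 0.0225), fell alike, and the call of *Des* was lost without *Cldn2*KO AOM/DSS 3. Summed over the list, levels ranged from 5327 to 7834 CPM in WT controls, 825 to 4047 CPM in WT AOM/DSS, 10739 to 14108 CPM in *Cldn2*KO controls and 3284 to 8219 CPM in *Cldn2*KO AOM/DSS. The number called lower was 3 without *Cldn2*KO AOM/DSS 3, 4 without *Cldn2*KO control 3, 5 without WT control 1, 6 without *Cldn2*KO AOM/DSS 1 or *Cldn2*KO control 2, and 8 without WT AOM/DSS 1 or without WT control 2 and both *Xist*-high libraries together.

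Of 15 enteric neuron and glia markers tested, 0 were called higher and 5 lower, with a median log2 fold change of -1.15, beside 6.79% of all genes called lower. Only 1 of the 5 did not overlap in either genotype, a smaller share than the 705 of 1119 among all lower calls. *Elavl4*, an RNA-binding protein of neurons, stood at 6.16, 9.52 and 5.79 CPM in WT controls, at 2.1, 2.47 and 0.762 CPM in WT AOM/DSS, at 7.88, 5.92 and 6.08 CPM in *Cldn2*KO controls and at 1.83, 4.95 and 2.42 CPM in *Cldn2*KO AOM/DSS (-1.54 ± 0.342 SE; edgeR adjusted p = 0.0207). Summed over the list, levels ranged from 158 to 184 CPM in WT controls, 43.5 to 94.1 CPM in WT AOM/DSS, 164 to 208 CPM in *Cldn2*KO controls and 61 to 172 CPM in *Cldn2*KO AOM/DSS, so the *Cldn2*KO groups overlapped. The count called lower was 2 without *Cldn2*KO AOM/DSS 3, 11 without *Cldn2*KO AOM/DSS 2, and 3 without any 1 of the *Cldn2*KO controls, WT control 1, WT control 3, WT AOM/DSS 1, WT AOM/DSS 3 or *Cldn2*KO AOM/DSS 1. *Upk3b*, a uroplakin known as a mesothelial marker, had the largest fall of all named genes: 3.86, 11.3 and 4.24 CPM in WT controls and 0.365, 5.27 and 1.65 CPM in *Cldn2*KO controls, against 0, 0.32 and 0 CPM in WT AOM/DSS and 0.153, 0 and 0 CPM in *Cldn2*KO AOM/DSS (-5.73 ± 0.936 SE; edgeR adjusted p = 0.0103). In *Cldn2*KO, where the AOM/DSS libraries held 3 reads, the ratio of control to AOM/DSS was 59 (95% counting interval 19.7 to 290). *Lrrn4*, another mesothelial gene, was chosen after its values were seen and was lower too (-4.27 ± 0.912 SE; edgeR adjusted p = 0.0193), whereas *Msln*, mesothelin, was not called (0.35 ± 0.791 SE). No list was set for mesothelium. The muscle and nerve lists followed the Wnt list in some libraries and not in others. In WT AOM/DSS 1, where the Wnt list was inside the control range, the mean log2 CPM was 6.21 for smooth muscle (7.36 to 7.91 in WT controls) and 1.54 for nerve markers (2.67 to 3.13). In *Cldn2*KO AOM/DSS 2, where the Wnt list stood at 3.23, smooth muscle was at 8.01 (8.34 to 8.63 in *Cldn2*KO controls). Its nerve markers were at 2.985, inside the 2.807 to 3.175 of these controls. WT AOM/DSS 3, highest for the Wnt list (5.91), was lowest for both, at 4.80 and 0.80. The part of a different share of outer wall in the sampled tissue was not tested.

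Among the stromal lists, 27 genes of collagens and activated fibroblasts gave 1 called higher and 3 lower, beside 7.17% and 6.79% of all genes tested. The median of the list was -0.47. The count called lower rested on single libraries: it was 12 without *Cldn2*KO AOM/DSS 2 and 1 without *Cldn2*KO AOM/DSS 1, *Cldn2*KO AOM/DSS 3, WT control 1, WT control 2 or any 1 *Cldn2*KO control. It was 10 with DESeq2 and 7 with limma-voom. *Sparc*, a matrix protein, stood at 80.1, 61.2 and 55.4 CPM in WT controls, at 20.9, 45.1 and 32.8 CPM in WT AOM/DSS, at 100, 91.6 and 130 CPM in *Cldn2*KO controls and at 39.5, 74.1 and 29.5 CPM in *Cldn2*KO AOM/DSS (-1.08 ± 0.237 SE; edgeR adjusted p = 0.0205). *Col8a2*, a short-chain collagen, fell by 2.63 on the log2 scale (SE 0.543; edgeR adjusted p = 0.0176). *Lyve1*, a marker of lymphatic endothelium and resident macrophages, stood at 25.9, 22.2 and 24.5 CPM in WT controls, at 12.5, 9.69 and 4.57 CPM in WT AOM/DSS, at 28.7, 25.2 and 24.1 CPM in *Cldn2*KO controls and at 7.33, 12.3 and 11.9 CPM in *Cldn2*KO AOM/DSS (-1.37 ± 0.213 SE; edgeR adjusted p = 0.00743). *Cd163*, a scavenger receptor of tissue-resident macrophages, stood at 0.802 to 3.13 CPM in the 6 controls and at 0 to 0.275 CPM in the 6 AOM/DSS libraries (-3.26 ± 0.442 SE; edgeR adjusted p = 0.00446). Of the 20 macrophage and monocyte markers, 2 were called higher and 2 lower, with a median of -0.04, and 1 higher in 8 of the 12 fits without 1 library. Only 9 of the 20 had the same sign in both genotypes, beside 11218 of all 16488 genes tested.

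Some targets of the glucocorticoid receptor and genes of the circadian clock were picked after their values had been seen, so their low adjusted p-values follow from the choice and are given as descriptions of single genes. *Sgk1*, a kinase induced by corticosteroids that activates the epithelial sodium channel, stood at 136, 358 and 142 CPM in WT controls, at 53.5, 37.4 and 41.2 CPM in WT AOM/DSS, at 421, 403 and 333 CPM in *Cldn2*KO controls and at 88.5, 84 and 38.2 CPM in *Cldn2*KO AOM/DSS. All AOM/DSS libraries lay below all controls (-2.36 ± 0.28 SE; edgeR adjusted p = 0.00283). *Tsc22d3*, which encodes the glucocorticoid-induced leucine zipper, stood at 113, 93.8 and 116 CPM in WT controls, at 53.1, 36.7 and 24.2 CPM in WT AOM/DSS, at 112, 141 and 158 CPM in *Cldn2*KO controls and at 50.3, 49.9 and 28.8 CPM in *Cldn2*KO AOM/DSS (-1.59 ± 0.196 SE; edgeR adjusted p = 0.00309). *Fkbp5*, a co-chaperone of the receptor, fell by 2.07 on the log2 scale (SE 0.381; edgeR adjusted p = 0.0143). These 3 calls were kept in all 12 fits without 1 library, and the call of *Zbtb16* (-1.60 ± 0.398 SE; edgeR adjusted p = 0.0265) in 8 of 12.

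Of the clock genes, *Per1*, a repressor of the clock that also responds to glucocorticoids, stood at 38.1, 55.3 and 34 CPM in WT controls, at 13.8, 18.6 and 21.5 CPM in WT AOM/DSS, at 39.7, 59.5 and 55.8 CPM in *Cldn2*KO controls and at 23.1, 25.9 and 19.1 CPM in *Cldn2*KO AOM/DSS (-1.21 ± 0.161 SE; edgeR adjusted p = 0.00396). *Usp2*, a deubiquitinase with a clock-driven rhythm, stood at 25.7 to 81.8 CPM in the 6 controls and at 3.96 to 15.1 CPM in the 6 AOM/DSS libraries (-2.53 ± 0.377 SE; edgeR adjusted p = 0.00698). *Per2* (-1.06 ± 0.176 SE; edgeR adjusted p = 0.0103), *Ciart* (-1.52 ± 0.364 SE; edgeR adjusted p = 0.0242), *Hlf* (-1.75 ± 0.408 SE; edgeR adjusted p = 0.0225) and *Tef* (-0.99 ± 0.23 SE; edgeR adjusted p = 0.0225) were also called lower. The calls of *Hlf* and *Tef* were lost without *Cldn2*KO AOM/DSS 3, and *Dbp* kept its call (edgeR adjusted p = 0.0313) in 4 of 12 fits without 1 library. *Cirbp*, an RNA-binding protein that follows body temperature, rose from 19.8 to 29.6 CPM in controls to 35.6 to 57.6 CPM in AOM/DSS (0.92 ± 0.143 SE; edgeR adjusted p = 0.00743). The core activator *Arntl* (-0.58 ± 0.237 SE; edgeR adjusted p = 0.11), its repressor *Nr1d1* (-0.65 ± 0.225 SE; edgeR adjusted p = 0.0693) and *Per3* (-0.47 ± 0.26 SE; edgeR adjusted p = 0.23) were not called. The labels give no hour of tissue collection, and its part in these values was not tested.

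Promoters from the RefSeq table for GRCm38.p6, each from 250 bases before to 50 bases after a transcription start, were searched on both strands. Of 38 genes considered for the NF-κB and TCF/LEF motifs, 27 had a promoter in the table and 2 of these held a match, *Sgk1* and *Upk3b*, which are shown for that reason. *Per1* and *Ciart* are shown as clock genes with an E-box. A match is a description of letters, not of a bound site. In *Sgk1*, 1 of 6 promoters held the TCF/LEF motif CTTTGAT, at chr10:21978422-21978721 on the plus strand, which 3.73% of 32851 promoters hold. In *Upk3b*, the promoter at chr5:136038246-136038545 on the plus strand held the NF-κB consensus, in a pair of overlapping matches, which 8.46% of promoters hold. The clock E-box CACGTG was searched in 9 clock genes, of which 8 were in the table and 3 held it (*Per1*, *Tef* and *Ciart*), against 8.09% of 27025 genes. *Per1* held it once, at chr11:69098699-69098998 on the plus strand, and *Ciart* held 3 at chr3:95882179-95882478 on the minus strand. Capitals mark the matches, and each sequence runs 5′ to 3′ along the gene's strand.
Sgk1: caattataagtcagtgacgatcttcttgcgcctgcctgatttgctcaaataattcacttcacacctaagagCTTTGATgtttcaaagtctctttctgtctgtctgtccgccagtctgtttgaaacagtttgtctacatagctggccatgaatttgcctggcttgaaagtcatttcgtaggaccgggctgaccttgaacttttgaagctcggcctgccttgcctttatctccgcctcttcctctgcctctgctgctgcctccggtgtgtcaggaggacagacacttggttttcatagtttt
Upk3b: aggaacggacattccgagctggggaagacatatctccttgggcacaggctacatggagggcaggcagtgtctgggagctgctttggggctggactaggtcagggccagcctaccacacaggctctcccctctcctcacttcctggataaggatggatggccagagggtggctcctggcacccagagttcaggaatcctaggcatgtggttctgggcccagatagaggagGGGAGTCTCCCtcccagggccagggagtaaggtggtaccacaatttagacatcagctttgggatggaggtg
Per1: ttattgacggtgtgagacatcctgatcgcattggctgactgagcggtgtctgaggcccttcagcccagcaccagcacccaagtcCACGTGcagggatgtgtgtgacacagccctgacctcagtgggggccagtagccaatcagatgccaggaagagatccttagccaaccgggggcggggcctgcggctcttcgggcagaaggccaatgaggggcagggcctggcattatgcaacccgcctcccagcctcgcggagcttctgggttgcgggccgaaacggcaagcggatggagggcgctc
Ciart: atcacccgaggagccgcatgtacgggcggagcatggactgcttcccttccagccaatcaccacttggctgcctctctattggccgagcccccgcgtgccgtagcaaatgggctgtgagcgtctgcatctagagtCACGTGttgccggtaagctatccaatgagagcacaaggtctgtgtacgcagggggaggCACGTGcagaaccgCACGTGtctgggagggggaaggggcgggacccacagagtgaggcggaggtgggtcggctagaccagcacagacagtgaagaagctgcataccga
Across the genes of the looser count that matched a promoter, the NF-κB consensus stood in 12.8% of 468 higher and 14.9% of 516 lower genes, against 12.4% of all 11214 tested genes with a promoter. The TCF/LEF motif stood in 2.56% of higher and 2.71% of lower genes, against 3.12%.

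Of the 32 genes that the study discusses, 30 passed the filter. Among these, 6 were called higher and 2 lower, beside 7.17% and 6.79% of all genes tested. The 32 genes were taken from the study's own text and are not independent evidence of a direction. The count called higher was 2 without *Cldn2*KO control 2, WT AOM/DSS 3, WT control 2 or WT control 3. It was 3 without *Cldn2*KO control 1, *Cldn2*KO control 3, *Cldn2*KO AOM/DSS 1 or *Cldn2*KO AOM/DSS 3. The count called lower was 0 without *Cldn2*KO AOM/DSS 3. Beside *Myc* and *Ccnd1*, the cytokines *Il1b* (3.01 ± 0.759 SE; edgeR adjusted p = 0.0288) and *Tnf* (2.18 ± 0.643 SE; edgeR adjusted p = 0.0438), *Stat3* (0.37 ± 0.106 SE; edgeR adjusted p = 0.0383) and *Egf* (0.88 ± 0.259 SE; edgeR adjusted p = 0.0428) were called higher, and each of these 4 calls was kept in 3 or 4 of 12 fits without 1 library. *Il1b* stood at 2.5, 3.17 and 3.9 CPM in WT controls, at 3.12, 5.58 and 80.2 CPM in WT AOM/DSS, at 0.47, 0.237 and 1.48 CPM in *Cldn2*KO controls and at 6.62, 2.78 and 5.55 CPM in *Cldn2*KO AOM/DSS, so that in WT the groups overlapped. Its log2 fold change ranged from 1.71, without WT AOM/DSS 3, to 3.40 over the fits without 1 library. *Il1b*, *Stat3* and *Egf* overlap genes on the other strand and are uncertain. *Cdkn1a*, the cell cycle inhibitor p21, stood at 319, 269 and 283 CPM in WT controls, at 112, 136 and 143 CPM in WT AOM/DSS, at 228, 244 and 217 CPM in *Cldn2*KO controls and at 244, 130 and 160 CPM in *Cldn2*KO AOM/DSS. The additive fit called it lower (-0.76 ± 0.182 SE; edgeR adjusted p = 0.0237), but the *Cldn2*KO groups overlapped. *Vil1*, villin of the brush border, was the other gene called lower (-0.74 ± 0.208 SE; edgeR adjusted p = 0.038), a call kept in 4 of 12 fits without 1 library, and it overlaps a gene on the other strand. *Birc5*, survivin, was not called (0.18 ± 0.245 SE), nor were *Egfr* (0.42 ± 0.155 SE; edgeR adjusted p = 0.0829), *Ereg* (0.12 ± 0.466 SE), *Mki67* (0.19 ± 0.211 SE) and *Bcl2* (0.04 ± 0.14 SE).

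Of 25 mitosis genes, 4 were called higher and 0 lower, with a median of 0.41 (0.18 in WT and 0.67 in *Cldn2*KO). Their summed levels overlapped in WT, at 761 to 1998 CPM in controls and 1226 to 1890 CPM in AOM/DSS, but not in *Cldn2*KO, at 769 to 886 CPM and 1032 to 1520 CPM. None was called higher without any 1 *Cldn2*KO control, *Cldn2*KO AOM/DSS 1 or *Cldn2*KO AOM/DSS 3, 1 without WT AOM/DSS 1, WT AOM/DSS 3 or WT control 3, and 2 without WT control 2. *Plk1*, a mitotic kinase, stood at 44.5, 19.2 and 31.8 CPM in WT controls, at 43.5, 49.9 and 40.9 CPM in WT AOM/DSS, at 29.5, 19.4 and 27.1 CPM in *Cldn2*KO controls and at 47, 47.8 and 55 CPM in *Cldn2*KO AOM/DSS (0.73 ± 0.19 SE; edgeR adjusted p = 0.0297), with overlap in WT and a call kept in 5 of 12 fits without 1 library. Of 30 DNA replication genes, 0 were called by edgeR in either direction and 8 had an unadjusted p under 0.05 (median 0.29), with at most 3 called in any alternative. The sums of these genes separated in WT, at 572 to 888 CPM in controls and 913 to 1470 CPM in AOM/DSS, and overlapped in *Cldn2*KO. Of 19 p53 targets, 1 was called higher (*Aen*) and 2 lower (*Cdkn1a* and *Btg2*), with a median of -0.06. The call of *Aen* was kept in 5 of 12 fits without 1 library, that of *Btg2* in 9 and that of *Cdkn1a* in 11. The count called lower was 1 without *Cldn2*KO control 2 or 3, and 0 were called in either direction without *Cldn2*KO AOM/DSS 3. The 14 genes of prostaglandin synthesis and its receptors gave 1 called higher, *Ptges* (0.79 ± 0.219 SE; edgeR adjusted p = 0.0364), and 3 lower, among them *Ptgs1*, which encodes cyclooxygenase 1 (-0.94 ± 0.175 SE; edgeR adjusted p = 0.0143), and *Hpgd*, which degrades prostaglandins (-1.07 ± 0.288 SE; edgeR adjusted p = 0.0337). The third was *Ptgis*, prostacyclin synthase (-1.15 ± 0.271 SE; edgeR adjusted p = 0.0232). The calls of *Ptges* and *Hpgd* were kept in 3 and 4 of 12 fits without 1 library, that of *Ptgis* in 9 and that of *Ptgs1* in all 12. The count called lower was 1 without *Cldn2*KO control 2, *Cldn2*KO AOM/DSS 3 or WT control 1. The sums of these 14 genes were lower without overlap in *Cldn2*KO, at 638 to 743 CPM in controls and 420 to 471 CPM in AOM/DSS, and overlapped in WT, at 508 to 594 CPM and 401 to 533 CPM. Their mean log2 CPM was lower without overlap in both genotypes. It was 3.723 to 3.772 in WT controls and 3.585 to 3.656 in WT AOM/DSS, and 3.794 to 3.96 and 3.527 to 3.763 in *Cldn2*KO. The 14 immediate early genes tested gave 0 higher and 3 lower, among them *Fos* (-1.46 ± 0.339 SE; edgeR adjusted p = 0.0225) and *Zfp36*, which destabilizes cytokine transcripts (-0.66 ± 0.148 SE; edgeR adjusted p = 0.021), with 1 lower without *Cldn2*KO AOM/DSS 3 and 5 without WT AOM/DSS 3. Of 22 genes of NF-κB and TNF signaling, 4 were called higher and 1 lower, with a median of 0.39, and of 14 genes of the IL-6 family and Stat3, 4 and 1, with *Socs3*, the feedback inhibitor of Stat3 signaling, at 1.60 ± 0.34 (SE; edgeR adjusted p = 0.0194). All genes tested gave 7.17% called higher and 6.79% lower. The NF-κB and TNF sums separated in *Cldn2*KO, at 619 to 643 CPM in controls and 655 to 837 CPM in AOM/DSS, and overlapped in WT, whereas the IL-6 and Stat3 sums overlapped in both genotypes. The mean log2 CPM of the IL-6 and Stat3 genes separated in *Cldn2*KO, at 3.397 to 3.521 in controls and 3.568 to 3.888 in AOM/DSS, and overlapped in WT. Of the NF-κB and TNF genes, 0 were called higher without *Cldn2*KO control 2, WT AOM/DSS 3 or *Cldn2*KO AOM/DSS 3, as against 4 with all libraries. It was 1 without *Cldn2*KO control 1, *Cldn2*KO AOM/DSS 1, WT control 2 or WT control 3. It was 2 without WT AOM/DSS 2 or WT control 1. Of the IL-6 and Stat3 genes, 1 was called higher without *Cldn2*KO control 2 or *Cldn2*KO AOM/DSS 3. It was 2 without *Cldn2*KO control 1, *Cldn2*KO control 3, *Cldn2*KO AOM/DSS 1 or any 1 WT control.

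Lymphocyte and interferon lists had no shared direction. Of 17 T and NK cell markers, 0 were called by edgeR and 0 had an unadjusted p under 0.05, and of 14 B and plasma cell markers 0 were called and 1 had an unadjusted p under 0.05. Their medians were -0.64 and -0.21, and each changed sign among the 24 alternatives (-0.91 to 0.31 and -0.48 to 0.93), in which at most 0 and 1 of the markers were called. The T and NK median was -1.46 in WT and 0.56 in *Cldn2*KO, and only 5 of 17 markers had the same sign in both genotypes. Of 13 genes of MHC class II presentation, which displays antigen to T cells, 1 was called lower and 0 higher, and 9 had the same sign in both genotypes. The count called lower was 5 without *Cldn2*KO control 2, 2 without *Cldn2*KO control 1, 0 without *Cldn2*KO AOM/DSS 3 and 6 with DESeq2 or limma-voom. The medians were -2.35 in WT and -0.33 in *Cldn2*KO, and summed levels ranged from 4412 to 5048 CPM in WT controls, 720 to 1065 CPM in WT AOM/DSS, 774 to 1259 CPM in *Cldn2*KO controls and 527 to 700 CPM in *Cldn2*KO AOM/DSS. The sums, which abundant members carry, were lower after AOM/DSS without overlap in both genotypes, and the *Cldn2*KO controls stood below the WT controls. The mean log2 CPM of the same genes did not separate in *Cldn2*KO, at 2.95, 2.26 and 4.77 in controls and 3.79, 3.26 and 3.27 in AOM/DSS, where each AOM/DSS library exceeded 2 of the 3 controls. Of 33 interferon response genes, 0 were called higher and 1 lower, *Irf1* (-0.62 ± 0.133 SE; edgeR adjusted p = 0.0193), with medians of -0.68 in WT and 0.76 in *Cldn2*KO and 9 genes of the same sign in both. *Ddah1*, an enzyme that degrades an inhibitor of nitric oxide synthesis, was the 1 gene called in *Cldn2*KO that was not shared: it stood at 16.8, 10.8 and 15.8 CPM in *Cldn2*KO controls and 67.9, 46.8 and 62.6 CPM in *Cldn2*KO AOM/DSS, at 74.4, 54.4 and 75.7 CPM in WT controls and 53.6, 63.8 and 63.2 CPM in WT AOM/DSS (log2 fold change 2.03 in *Cldn2*KO, edgeR adjusted p = 0.00762, and -0.18 in WT).

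The remaining lists held few calls, beside 7.17% called higher and 6.79% lower among all genes tested. Of 18 enteroendocrine genes, 1 was called higher and 2 lower, among them *Cpe*, a hormone-processing enzyme (-1.12 ± 0.24 SE; edgeR adjusted p = 0.0194). Over the fits without 1 library, the count called lower was 2 or 3 without WT AOM/DSS 2, WT AOM/DSS 3, *Cldn2*KO AOM/DSS 2 or WT control 2 and 1 otherwise. Of 11 tuft cell genes 1 was called higher. For both lists, the call higher was kept without WT AOM/DSS 1 or *Cldn2*KO AOM/DSS 2 and lost without any 1 of the other libraries. Of 14 endothelial markers 1 was called higher and 1 lower, and of 7 adipocyte markers 0 in either direction by edgeR, with 2 at an unadjusted p under 0.05 and at most 2 called in any alternative. The endothelial markers had a median of -0.61 (-0.93 to -0.52 over the 24 alternatives), 12 of 14 had the same sign in both genotypes, and 7 had an unadjusted p under 0.05. Without *Cldn2*KO AOM/DSS 2, 10 were called lower. Of 10 posterior Hox genes 1 was called higher, *Hoxd9*, at 2.18 to 4.72 CPM in controls and 5.53 to 7.99 CPM in AOM/DSS (0.97 ± 0.191 SE; edgeR adjusted p = 0.0159). *Nupr1*, a stress-response regulator chosen after its values were seen, stood at 47.3 to 98 CPM in the controls and at 76.7 to 174 CPM in AOM/DSS libraries (0.90 ± 0.202 SE; edgeR adjusted p = 0.021).

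**Figure D5:**
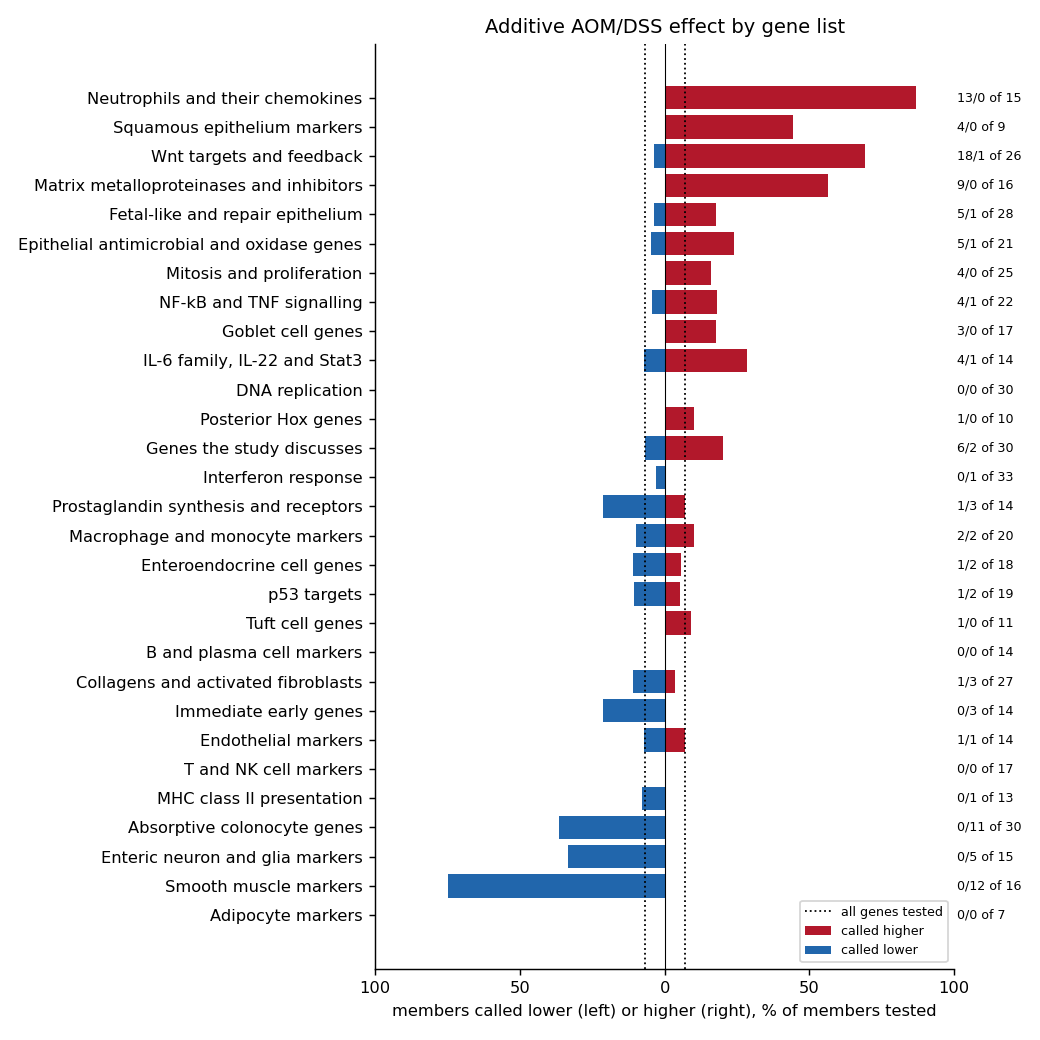
Share of the tested members of 29 gene lists called lower (bars to the left) or higher (bars to the right) in the additive fit, in percent, with the counts higher/lower beside each bar. The dotted lines mark the shares among all genes tested, 7.17% higher and 6.79% lower, and the neutrophil, Wnt and MMP lists reach farthest to the right and the smooth muscle list farthest to the left.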

How the data were processed

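RNA-seq of colon was analysed in 12 libraries, 3 for each of WT control, WT AOM/DSS, *Cldn2*KO control and *Cldn2*KO AOM/DSS. The authors deposited raw read counts per gene, with 36 columns for 18 libraries on 2 lanes each, and the lanes were summed. Reads were counted with featureCounts (Subread) on GRCm38. The study's methods name TopHat2 as aligner and the submitters' processing notes name HISAT2. Their versions, the annotation and the strand setting are not given in the sources used here. The authors tested their counts with DESeq2.

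Of 47729 genes, 47224 matched a symbol of GENCODE M21. The filter of edgeR 4.0.16 (R 4.3.3) on the 4 groups kept 16488 genes. TMM scaling and robust quasi-likelihood fits gave the treatment effect with genotype as an additive factor, the effect in each genotype and their interaction, all with Benjamini-Hochberg adjustment. A call is an adjusted p under 0.05. The biological coefficient of variation was 0.33. Total counts of 17.6 to 27.4 M reads set the counting error, and exact 95% intervals and floors of 3 reads cover counting error only. Replicates differed far more than the lanes of 1 library (chi-square per degree of freedom of at least 11.9 over 12 pairs, against 1.08 to 1.13), so none was a repeat of another. Groups came from the labels. Replicate numbers of AOM/DSS libraries follow the order of deposit.

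The genes, lists and tests were chosen with earlier results of these data known. Named genes were the 12 higher and 12 lower genes with the largest additive change, at least 1 CPM on average and no overlap in either genotype, up to 4 called members of each list, and the genes the study discusses. The first of these was meant for genes called in each genotype, and since only 3 were found it was applied to the 1350 genes of the looser count. Predicted genes without a common symbol were passed over there (3 lower). Other genes, the glucocorticoid and clock genes among them, were chosen after their values were seen. The tests were checked on simulated data. Alternatives were DESeq2 1.42.0, limma-voom (limma 3.58.1), other scalings, filters and thresholds, all 18 libraries, and leaving out each library. Further ones took *Xist* or *Hoxb13* (posterior identity), above or below 10 unscaled CPM, as a factor.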

Additional observations from a re-analysis of the deposited data

Results flagged for a closer look

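Mean log2 CPM over each of 29 lists was compared among the 6 controls and among the 6 AOM/DSS libraries. A library is given where its gap to the nearest other library, as a share of the whole range, passed Dixon's 95% critical value for 6 samples. With 58 such checks about 3 would be passed by chance.

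WT AOM/DSS 3 stood apart in 4 lists. Its neutrophil genes were at 5.43 against 1.55 to 2.74 in the other 5 AOM/DSS libraries (share 0.692), and its IL-6 family genes at 4.83 against 3.57 to 3.89 (0.747). Its goblet cell genes were at 7.29 against 8.37 to 8.6 (0.823), and its enteroendocrine genes at 2.09 against 2.74 to 3.02 (0.697). WT control 2 stood apart in 3 lists. Its posterior Hox genes were at 1.66 against 4.86 to 5.17 in the other 5 controls (0.912), its adipocyte markers at 6.66 against 2.27 to 2.95 (0.844) and its goblet cell genes at 7.01 against 8.07 to 8.19 (0.892). WT AOM/DSS 1 had posterior Hox genes at 4.83 against 5.09 to 5.22 (0.67).

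The interferon response genes moved in opposite directions: all 3 WT AOM/DSS libraries were below the WT controls, by 0.782 log2 units on average, and all 3 *Cldn2*KO AOM/DSS libraries were above the *Cldn2*KO controls, by 0.847, a difference of 1.63. The difference was not tested for the list. Over all genes, 136 (0.825%) separated in opposite directions in the 2 genotypes.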

How the results depend on the processing

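Of the 24 alternatives, RLE size factors, upper-quartile scaling and a filter of 1 CPM in 3 libraries kept every count of calls within 1.5 times. None of the 121 named genes called in the additive fit changed direction in any alternative. Their selection from the same libraries largely fixes this, and nothing is read from it. Counts are given for the additive fit (2301), WT (869), *Cldn2*KO (4), the interaction (0), genes called in each genotype (3) and the looser count (1350). Without a filter they were 1414, 614, 21, 2, 12 and 980. DESeq2 gave 3723, 3030, 733, 118, 349 and 1548, and limma-voom 3755, 2074, 2468, 200, 604 and 1500. Of the looser count, 1339 genes were shared with DESeq2 and 1339 with limma-voom. With all 18 libraries the counts were 2701, 1761, 33, 2, 20 and 1334. An adjusted p under 0.01 left 74, 7, 2, 0, 1 and 74, and a test against a log2 fold change of 1 left 3, 1, 0, 0, 0 and 3. With *Xist* level as a factor they were 2137, 615, 0, 0, 0 and 1087, and with posterior identity 1959, 366, 195, 5, 57 and 1156. Without WT control 2 and both *Xist*-high libraries, chosen after seeing the data, they were 1373, 179, 4, 1, 1 and 1276. Over the fits without 1 library the ranges were 696 to 3022, 47 to 1005, 0 to 204, 0 to 6, 0 to 59 and 604 to 2135. The cause of these differences was not tested.

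No paired analysis was possible because only the controls carry replicate numbers in their labels. With 3 libraries a group, 1 library decided many calls, and genes at under 1 CPM rested on few reads.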
